A study of Homo sapiens with 9 samples.

Results

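Interferon regulatory factors (IRFs) are transcription factors that bind the interferon-stimulated response element (ISRE), a DNA motif in the promoters of interferons and of genes induced by them. IRF3 and IRF7 are held inactive in the cytoplasm until the kinases TBK1 and IKKε phosphorylate them, whereas IRF9 is the DNA-binding subunit of the ISGF3 complex, which also holds STAT2 and carries the signal of type I interferon receptors to the ISRE. IRF1, IRF7 and IRF9 are themselves induced by interferon, and IRF2 competes with IRF1 for the same motif. The IRF2 binding proteins IRF2BP1 and IRF2BP2 are co-repressors first described as partners of IRF2.

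The genes described here were the 9 whose symbols in the expression table were IRF1, IRF2, IRF3, IRF5, IRF7, IRF9, IRF2BP1, IRF2BP2 and IRF2BPL, out of 22295 entries of the table. They comprise IRF genes that are not restricted to blood cells, set together with the IRF2 binding proteins. All 9 passed the filter of 0.1 FPKM on the mean over libraries and were among the 15551 genes and assembled loci tested. They were measured by RNA-seq in U251 cells, an established human glioblastoma line, infected with lentivirus. The groups were sh-Luci-3d (control sh-RNA directed against luciferase, collected 3 days post infection), sh-Ptbp1-3d (sh-RNA against PTBP1, 3 days) and sh-Ptbp1-7d (the same sh-RNA, 7 days), with 3 libraries each. All groups shared the lentiviral infection. In the culture scheme of the paper, neuronal induction medium, which contains forskolin and dorsomorphin, replaced the growth medium from day 2. The paper does not say separately that the sequenced cells followed this scheme. If they did, the sh-Ptbp1-7d cells had spent more days in that medium. The knockdown came from 1 sh-RNA in 1 cell line.

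No sh-Luci library of 7 days was analysed here, and knockdown, time after infection and time in induction medium cannot be told apart in any comparison with sh-Ptbp1-7d. The targeted gene PTBP1 averaged 115.7 ± 7.58 FPKM (SD, n = 3) in the control, fell to 63.9 ± 2.67 FPKM by day 3 of the knockdown and stood at 50.5 ± 0.645 FPKM on day 7. The fall by day 3 was -0.85 on the log2 scale (limma adjusted p = 0.00314). FPKM counts fragments for each kilobase of a transcript, relative to all fragments mapped in the library. It is a level per length and can be compared between genes. The values do not come in steps of single reads. Depth is therefore unknown here, and no counting interval can be given. The labels do not say whether replicates were separate cultures, so p-values measure the spread between these libraries, which may be technical. Of 12 astroglial and glioma markers, 5 averaged under 1 FPKM in each group. VIM averaged 4168, 4381 and 1169 FPKM in the control, the day 3 and the day 7 knockdown. In the same order, SOX2 averaged 105.7, 124.5 and 144.8 FPKM and GFAP 0.347, 0.586 and 0.454 FPKM. By limma at an FDR below 0.01, 2 of 9 tested were lower in sh-Ptbp1-7d than in sh-Ptbp1-3d, as 15.5% of all genes were. They were VIM (log2 difference -1.91) and CD44 (-1.41). Higher were 2, SLC1A3 (1.89) and S100B (2.08), as 20.3% of all genes were. Of 17 blood and immune cell markers, 9, 9 and 7 were at 0 in every library of a group, and 16 averaged under 1 FPKM. The leukocyte marker PTPRC averaged at most 0.0493 FPKM and the myeloid factor SPI1 was listed at 0 in all libraries. The summed level of these markers in a library was 10.5 to 11.7 FPKM (sh-Luci-3d), 11.1 to 11.6 FPKM (sh-Ptbp1-3d) or 16.4 to 19.2 FPKM (sh-Ptbp1-7d), nearly all of it CD68, a lysosomal protein of macrophages and other cells.

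Log2 fold changes below are differences of log2(FPKM + 0.1) from limma, with all 9 libraries in one model, a scale on which the pseudocount shrinks the fold of a scarce transcript such as IRF7. Adjusted p-values are Benjamini-Hochberg values over all 15551 genes. A gene was called at an FDR below 0.05 between the 3 day groups and below 0.01 in comparisons with sh-Ptbp1-7d. Calls that also passed a fold of 2 are given separately. In bulk RNA, a lower level in each cell and fewer cells of one kind cannot be told apart.

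Expression of the members lay over a wide range. IRF3 had the highest mean in every group, namely 42.0 ± 10.6 FPKM (SD, n = 3) in the control libraries. IRF2BP2, IRF2BPL and IRF2BP1 came next at 20.1, 16.8 and 15.7 FPKM in sh-Luci-3d, and their ranges overlapped from one to the next. IRF1 at 9.89 FPKM overlapped with IRF9 at 7.51 FPKM, and IRF2 at 5.24 FPKM overlapped with IRF5 at 4.26 FPKM. IRF7 was the lowest in every group, at 0.428 ± 0.0480 FPKM in sh-Luci-3d. The order in sh-Ptbp1-3d differed from this by the exchange of IRF2BP1 and IRF2BPL, whose ranges overlapped there as well. In sh-Ptbp1-7d IRF1 stood in place 3, below IRF3 and IRF2BP2 and above the other members without overlap, and of the neighbours only IRF2BPL and IRF2BP1 overlapped. The IRF genes of blood cells were absent or nearly so. IRF8, a factor of myeloid and B cells, was listed at 0 in all 9 libraries. IRF4, which acts in lymphocytes, did not exceed 0.0187 FPKM.

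**Figure D1:**
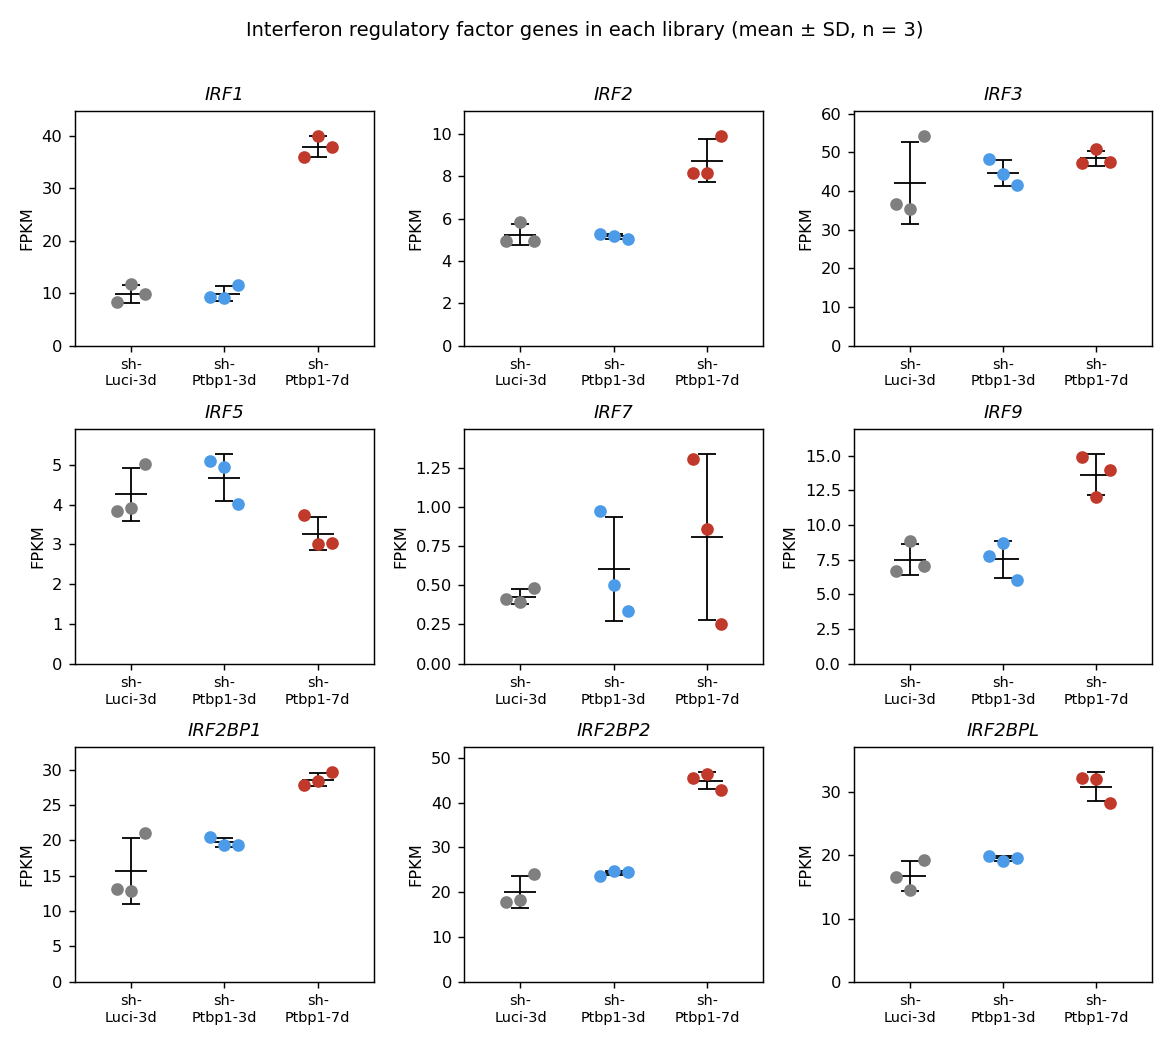
FPKM of the 9 genes in each library (points; y axes start at 0 and differ between panels), with the mean and SD of 3 libraries (bars). IRF1 lies between 35.9 and 39.9 FPKM in sh-Ptbp1-7d and at or below 11.7 FPKM in all other libraries, whereas the 3 groups of IRF7 and of IRF3 overlap.

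In sh-Ptbp1-3d against sh-Luci-3d, no member passed the FDR. The comparison addresses the early effect of the knockdown. Of all genes tested, 0.0322% were called in it, and at an unadjusted p below 0.05 there were 2 members, IRF2BP1 and IRF2BP2, against 7.24% of all genes. No member was higher without overlap in sh-Ptbp1-3d, as 5.86% of all genes were. The median log2 fold change of the members was 0.14, beside 0.01 for all genes. The 95% interval of the fold was 0.821 to 1.24 for IRF1, 0.834 to 1.18 for IRF2 and 0.790 to 1.26 for IRF9. For IRF7 it was 0.606 to 2.57, which holds a fold of 2.

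All 3 IRF2 binding protein genes had higher means in sh-Ptbp1-3d, with differences for IRF2BP1 of 0.37 (standard error 0.159, limma adjusted p = 0.679), IRF2BP2 of 0.28 (0.110, adjusted p = 0.623) and IRF2BPL of 0.22 (0.105, adjusted p = 0.697). IRF2BP1 was at 13.1, 12.8 and 21.1 FPKM in sh-Luci-3d replicates 1, 2 and 3 and at 20.5, 19.3 and 19.3 FPKM in sh-Ptbp1-3d. Replicate 3 of sh-Luci-3d was as high as the sh-Ptbp1-3d libraries, and the other sh-Luci-3d libraries were lower. It was also the highest of its group for IRF3 (54.2 FPKM against 36.5 and 35.3 FPKM), IRF5, IRF7, IRF2BP2 and IRF2BPL. Without it, calls among all genes went from 5 to 993 of 15582 (6.37%, with 5.02% called higher), and 4 members passed the FDR, namely IRF2BP1 (0.60, adjusted p = 0.00333), IRF2BP2 (0.42, adjusted p = 0.00951), IRF3 (0.31, adjusted p = 0.0375) and IRF2BPL (0.33, adjusted p = 0.0470). The longest transcript of IRF2BP1 is 68.5% G and C, above 99.2% of the annotated symbols, and that of IRF2BPL is 62.8%. Over all genes, the median log2 fold change of this comparison ran from -0.05 in the 1333 genes with the lowest GC content to 0.18 in the 1333 genes with the highest. A correction for GC content and length was added after seeing the data and was fitted with all 9 libraries, sh-Luci-3d replicate 3 among them. With it, IRF2BP1 differed by 0.11, IRF2BPL by 0.08 and IRF2BP2 by 0.29. No member was called, as none was in the 9 libraries without the correction. The part of GC content in these differences was not tested.

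From sh-Ptbp1-3d to sh-Ptbp1-7d, 5 of the 9 members rose and none was called lower, although IRF5 had lower values with an unadjusted limma p of 0.00666. The 5 were IRF1, IRF2BP2, IRF9, IRF2 and IRF2BPL, and IRF1 alone passed the fold of 2. Of all genes tested, 20.3% were called higher, 15.5% were called lower, and 8.31% were called higher with a fold above 2. Among the interferon-induced genes 2 of 3 were called (IRF1 and IRF9, but not IRF7), and among the others 3 of 6. The members' median log2 fold change was 0.66, beside 0.09 for all genes. Without regard to the test, 6 members were higher without overlap in sh-Ptbp1-7d, as 35.3% of all genes were, and 1 was lower without overlap, as 27.0% of all genes were.

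IRF1 is an activator that interferon-gamma induces and that drives genes of antigen presentation. It lies on chromosome 5 (GRCh38, chr5:132481609-132490798, minus strand). It was at 8.25, 11.7 and 9.75 FPKM in sh-Luci-3d, at 9.27, 9.003 and 11.5 FPKM in sh-Ptbp1-3d and at 35.9, 39.9 and 37.8 FPKM in sh-Ptbp1-7d. The libraries of both 3 day groups were mingled, and every sh-Ptbp1-7d library lay above all of them. The rise over sh-Ptbp1-3d was 1.93 on the log2 scale, or 3.81-fold (95% interval 3.11 to 4.67, limma adjusted p = 9.81e-07). Exons of the antisense gene C5orf56 cover 22.0% of the exonic bases of IRF1, and whether reads were counted by strand is not given in the sources used here.

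The promoter of IRF1 is shown because its gene rose most among the members. In the RefSeq sequences (GRCh38.p14), entries were found for IRF1, IRF5, IRF9, IRF2BP1, IRF2BP2 and IRF2BPL. The 225 bases below (chr5:132490799-132491023, minus strand, 5′ to 3′, positions -250 to -26 from the start) lie outside annotated exons, and the capitals mark a gamma-activated site (GAS), the motif TTCNNNGAA found in promoters that respond to interferon-gamma.
IRF1: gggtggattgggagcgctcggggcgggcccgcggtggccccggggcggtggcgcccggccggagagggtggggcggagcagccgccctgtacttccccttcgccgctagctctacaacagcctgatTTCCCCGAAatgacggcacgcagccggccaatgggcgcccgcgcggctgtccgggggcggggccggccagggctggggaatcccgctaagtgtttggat

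A search of both strands of the 250 bases before each start found the GAS letters in 6.57% of 35116 promoters and the ISRE core letters (GAAA, any 2 bases, GAAA) in 3.02%. No member with an entry held the ISRE letters in this window. GAS letters were present once each in IRF1 (positions -124 to -116), IRF9 (-63 to -55) and IRF2BP1 (-57 to -49), shown with 10 bases on each side so that the 3 can be set side by side. They lie at chr5:132490879-132490907 (minus strand), chr14:24161192-24161220 (plus strand) and chr19:45886180-45886208 (minus strand). The letters of IRF1 and IRF2BP1 lie outside annotated exons. The whole window of IRF9 is covered by annotated exons, and its letters lie inside the annotated gene given below, whose start is upstream of the RefSeq start. A match of letters describes the sequence and is no measure of binding.
IRF1: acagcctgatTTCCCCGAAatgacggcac
IRF9: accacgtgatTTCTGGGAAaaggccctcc
IRF2BP1: gggactacgtTTCCCAGAAggctttgcag

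IRF9, the DNA-binding subunit of ISGF3, lies on chromosome 14 (chr14:24161053-24166565, plus strand). It was at 6.66, 8.81 and 7.04 FPKM in sh-Luci-3d, at 7.77, 8.71 and 6.07 FPKM in sh-Ptbp1-3d and at 14.9, 12.0 and 14.0 FPKM in sh-Ptbp1-7d. All 3 sh-Ptbp1-7d libraries lay above the others. The rise over sh-Ptbp1-3d was 0.86 (standard error 0.152, 1.82-fold, limma adjusted p = 0.000841). The value of IRF9 is uncertain, since the annotated gene AL136295.5 on the same strand shares 1838 exonic bases with it, 48.4% of its own. AL136295.5 was at 27.0 ± 0.406 FPKM (SD, n = 3) on day 3 of the knockdown and rose to 39.6 ± 0.793 FPKM in sh-Ptbp1-7d, a difference of 0.55 (adjusted p = 0.000499), and how reads were divided between both genes is not given in the sources used here.

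IRF7, the factor that amplifies interferon-alpha production, did not pass the FDR in any comparison, and its libraries disagreed within groups. It lies on chromosome 11 (chr11:612553-615999, minus strand). It was at 0.410, 0.391 and 0.482 FPKM in sh-Luci-3d, at 0.977, 0.501 and 0.338 FPKM in sh-Ptbp1-3d and at 1.31, 0.860 and 0.255 FPKM in sh-Ptbp1-7d. The lowest of all 9 libraries and the highest were both in sh-Ptbp1-7d. The difference from sh-Ptbp1-3d was 0.25 on the log2 scale, with a 95% interval of -0.79 to 1.30 (limma adjusted p = 0.684), and it was -0.17 without sh-Ptbp1-7d replicate 1 and 0.82 without sh-Ptbp1-7d replicate 3. As a fold the interval ran from 0.578 to 2.46, which holds no change as well as a fold of 2. Its longest transcript is 66.9% G and C, above 98.2% of symbols.

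IRF2, which competes with IRF1 at the ISRE, lies on chromosome 4 (chr4:184387713-184474580, minus strand). It was at 4.96, 5.83 and 4.94 FPKM in sh-Luci-3d, at 5.29, 5.19 and 5.05 FPKM in sh-Ptbp1-3d and at 8.15, 8.17 and 9.89 FPKM in sh-Ptbp1-7d. Here too the 7 day libraries stood above all others. The rise over sh-Ptbp1-3d was 0.74 (standard error 0.112, 1.67-fold, limma adjusted p = 0.000300). In each library IRF1 was above IRF2. The ratio of IRF1 to IRF2 was 1.67, 1.999 and 1.97 in sh-Luci-3d, 1.75, 1.74 and 2.27 in sh-Ptbp1-3d and 4.41, 4.89 and 3.82 in sh-Ptbp1-7d. Although both genes rose, the activator was thus at a mean of 4.37 ± 0.536 (SD, n = 3) times the level of its competitor in sh-Ptbp1-7d and at 1.92 ± 0.306 times in sh-Ptbp1-3d, a comparison given without a test.

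**Figure D2:**
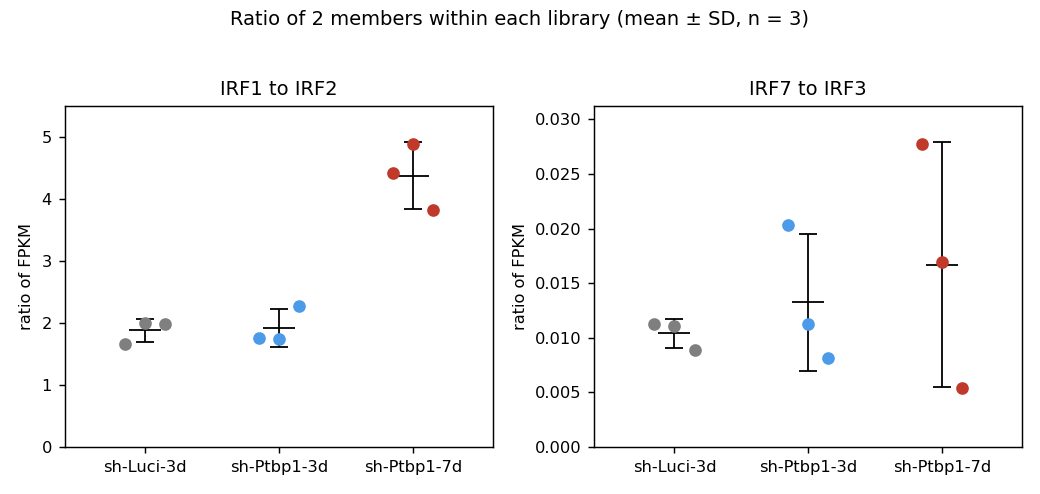
Ratio of FPKM between IRF1 and IRF2 (left) and between IRF7 and IRF3 (right) in each library (points), with the mean and SD of 3 libraries (bars). The IRF1 to IRF2 ratio is 3.82 to 4.89 in sh-Ptbp1-7d and at most 2.27 elsewhere, and the IRF7 to IRF3 ratio overlaps between all groups.

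IRF3, the factor that is expressed constitutively and activated by phosphorylation, was the most abundant member and did not pass the FDR at 7 days. It lies on chromosome 19 (chr19:49659569-49665875, minus strand). It was at 36.5, 35.3 and 54.2 FPKM in sh-Luci-3d, at 48.2, 44.5 and 41.5 FPKM in sh-Ptbp1-3d and at 47.1, 50.8 and 47.6 FPKM in sh-Ptbp1-7d. The groups overlapped, and the difference of sh-Ptbp1-7d from sh-Ptbp1-3d was 0.12 (limma adjusted p = 0.520), with a 95% interval of the fold from 0.872 to 1.35. BCL2L12 on the opposite strand shares 19.3% of the exonic bases of IRF3. BCL2L12 was at 24.8 ± 4.92 FPKM (SD, n = 3) on day 3 of the knockdown and fell to 12.9 ± 1.56 FPKM in sh-Ptbp1-7d (-0.92, adjusted p = 0.00104). The ratio of IRF7 to IRF3 averaged 0.0104 in the control, 0.0132 on day 3 and 0.0167 on day 7 of the knockdown, with overlap of all groups.

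IRF5, which acts downstream of Toll-like receptors and MYD88, was the member with lower values at 7 days. It lies on chromosome 7 (chr7:128937612-128950035, plus strand). It was at 3.84, 3.92 and 5.03 FPKM in sh-Luci-3d, at 5.10, 4.94 and 4.01 FPKM in sh-Ptbp1-3d and at 3.74, 3.02 and 3.05 FPKM in sh-Ptbp1-7d. Each sh-Ptbp1-7d library was below every library of the other groups, yet by a small margin. The difference from sh-Ptbp1-3d was -0.50 (standard error 0.1497, limma adjusted p = 0.0167) and missed the FDR of 0.01. Without sh-Luci-3d replicate 3 in the model, the adjusted p was 0.00736.

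The IRF2 binding proteins share a zinc finger and a RING domain. IRF2BP2 (chr1:234604269-234609525, minus strand) was at 17.8, 18.4 and 24.1 FPKM in sh-Luci-3d, at 23.7, 24.6 and 24.4 FPKM in sh-Ptbp1-3d and at 45.4, 46.4 and 42.8 FPKM in sh-Ptbp1-7d. Its rise over sh-Ptbp1-3d was 0.89 (standard error 0.110, 1.85-fold, limma adjusted p = 6.98e-05). IRF2BPL, a related gene that is known for its role in neurodevelopmental disorders, lies on chromosome 14 (chr14:77024543-77028699, minus strand). It was at 16.5, 14.6 and 19.3 FPKM in sh-Luci-3d, at 19.9, 19.1 and 19.7 FPKM in sh-Ptbp1-3d and at 32.3, 32.2 and 28.3 FPKM in sh-Ptbp1-7d. This rise was 0.66 (0.105, 1.58-fold, adjusted p = 0.000429). In both genes the sh-Ptbp1-7d libraries were above all others. Antisense genes share 14.7% of the exonic bases of IRF2BP2 and 14.8% of those of IRF2BPL.

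IRF2BP1 (chr19:45883607-45886170, minus strand) reached 27.8, 28.4 and 29.6 FPKM in sh-Ptbp1-7d, above every other library. Its difference from sh-Ptbp1-3d was 0.53 (standard error 0.159, limma adjusted p = 0.0167), which missed the FDR of 0.01. Fitted with these 2 groups alone, the same difference had an adjusted p of 0.000119, and without sh-Luci-3d replicate 3 it was 3.6e-05. Of all pairs of members, the profiles of IRF2BP2 and IRF2BPL over the 9 libraries were nearest to each other, with a root mean square difference of 0.143 on the log2 scale after each gene's mean was subtracted. IRF2BP1 and IRF2BPL followed at 0.146 and IRF2 and IRF9 at 0.165.

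**Figure D3:**
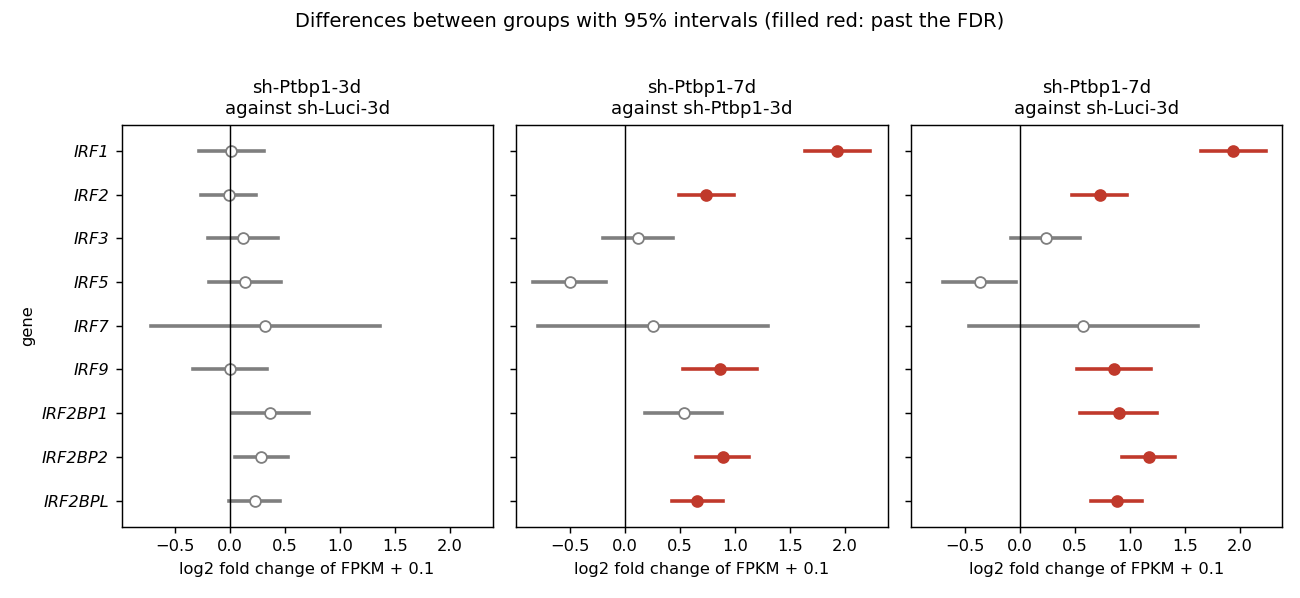
Log2 fold change of FPKM + 0.1 (points) with its 95% interval (lines) for the 9 genes in the 3 comparisons, where filled red points passed the FDR. IRF1 stands farthest from 0 at 1.93 and 1.94 in the comparisons with sh-Ptbp1-7d, IRF7 has the widest intervals, and no point is filled in the comparison at 3 days.

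In sh-Ptbp1-7d against sh-Luci-3d, 6 members rose and none was called lower. Both comparisons at 7 days share the sh-Ptbp1-7d libraries. Of all genes, 20.6% were called higher, 15.0% were called lower and 8.93% were called higher with a fold above 2. The 6 were IRF1 (1.94, limma adjusted p = 9.54e-07), IRF2BP2 (1.17, adjusted p = 9.06e-06), IRF2BP1 (0.90, adjusted p = 0.000808), IRF2BPL (0.88, adjusted p = 5.28e-05), IRF9 (0.86, adjusted p = 0.000838) and IRF2 (0.72, adjusted p = 0.000337). IRF1 and IRF2BP2 passed the fold of 2. Without regard to the test, 6 members were higher without overlap, beside 32.8% of all genes, and 1 was lower without overlap, beside 23.1%. IRF5 differed by -0.37 (adjusted p = 0.0623), IRF7 by 0.57 (interval -0.47 to 1.62, adjusted p = 0.338) and IRF3 by 0.23 (adjusted p = 0.198). Without sh-Luci-3d replicate 3, IRF3 passed the FDR at 0.43 (adjusted p = 0.000806). The members' median was 0.86, beside 0.10 for all genes.

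The genes whose profiles over the 9 libraries were nearest to those of the interferon-induced members were taken from 11332 genes that averaged 1 FPKM or more. For IRF1 these were IFIT1, an antiviral protein induced by interferon (root mean square difference 0.126 on the log2 scale), TMEM140 (0.128) and SLC1A3, the glial glutamate transporter EAAT1 (0.132). Each of these rose from sh-Ptbp1-3d to sh-Ptbp1-7d, IFIT1 from 114.3 to 442.3 FPKM, TMEM140 from 13.3 to 46.7 FPKM and SLC1A3 from 2.02 to 7.66 FPKM. They were chosen for likeness to IRF1 over these same libraries, so a similar rise comes with the choice and is no separate result. For IRF9 they were the histone gene H4C9 (0.106), CXorf38 (0.111) and TMEM254 (0.116). For IRF7 the nearest genes were farther away, HOXA6 at 0.335, CMTM1 at 0.374 and RAB43 at 0.377. Like IRF7, these 3 genes had their lowest sh-Ptbp1-7d value in replicate 3, a likeness for which they were chosen.

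The genes around the IRFs were examined as lists of pathway members, which were chosen with earlier results of these data known. By limma, no gene of the 6 lists was called at 3 days. At an unadjusted p below 0.05 there were 2 higher and 4 lower genes among 84 tested. The share of all genes at this limit, in either direction, was 7.24%. Of the sensors, adaptors and kinases that activate IRF3 and IRF7, 7 of 17 tested were called higher and 3 lower in sh-Ptbp1-7d than in sh-Ptbp1-3d. Of all genes, 20.3% were called higher and 15.5% lower in this comparison. The median log2 fold change of the list was 0.29, beside 0.09 for all genes. The largest differences were those of RNA sensors. TLR3, the endosomal receptor of double-stranded RNA, rose from 1.97 ± 0.206 to 13.1 ± 0.248 FPKM (2.68, limma adjusted p = 4.08e-07). IFIH1 (MDA5) rose from 23.6 ± 3.02 to 131.9 ± 4.50 FPKM (2.48, adjusted p = 3.50e-07) and DDX58 (RIG-I) from 51.1 ± 4.30 to 171.3 ± 9.99 FPKM (1.75, adjusted p = 4.43e-06). The genes called lower were MAVS, the adaptor of both RNA helicases (-0.93, adjusted p = 4.98e-05), the kinase gene IKBKE (-0.90, adjusted p = 0.000219) and IRAK1 (-0.63, adjusted p = 0.00169). The sh-Ptbp1-3d libraries held MAVS at 13.9, 13.3 and 11.7 FPKM, and the sh-Ptbp1-7d libraries at 7.74, 6.65 and 5.95 FPKM. TBK1 was at 13.3 and 17.4 FPKM on average (adjusted p = 0.0251, above the FDR).

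Of the interferon receptors, JAKs and STATs, 5 of 11 were called higher and 1 lower, beside 20.3% and 15.5% of all genes. The median was 0.29. STAT2, the partner of IRF9 in ISGF3, rose from 39.1 ± 2.01 to 110.8 ± 6.76 FPKM (1.498, limma adjusted p = 2.97e-07). JAK2, a kinase of the interferon-gamma receptor, rose from 3.69 ± 0.362 to 8.97 ± 1.11 FPKM (1.26, limma adjusted p = 2.32e-05). JAK1 was called lower (-0.59, adjusted p = 0.000573).

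Of 14 interferon and chemokine genes in the table, 4 passed the filter and 3 of these were called higher. IFNB1 and CXCL10 passed it only through sh-Ptbp1-7d, the group in which they were high, so that the count supports nothing by itself. CCL5 rose from 0.290, 0.359 and 0.155 FPKM to 5.64, 7.42 and 5.45 FPKM (4.12, limma adjusted p = 3.83e-07). CXCL10 went from 0, 0 and 0.0745 FPKM to 0.558, 0.627 and 0.624 FPKM (adjusted p = 0.000162). IFNB1, which encodes interferon-beta, was listed at 0 in all sh-Luci-3d libraries, at 0, 0.116 and 0 FPKM in sh-Ptbp1-3d and at 0.567, 0.294 and 0.762 FPKM in sh-Ptbp1-7d (adjusted p = 0.00138). With such low values the size of the fold depends on the pseudocount.

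A list of 22 genes was taken as holding interferon-stimulated response elements, which were not checked in the promoters of these genes here. Of the 22, 21 were called higher and 0 lower, beside 20.3% and 15.5% of all genes. The median was 2.25, beside 0.09 for all genes tested. The largest rises were those of XAF1 (0.552 to 43.6 FPKM, 6.10, limma adjusted p = 2.15e-08), the antiviral GTPase gene MX2 (3.27 to 94.6 FPKM, 4.85, adjusted p = 6.34e-08) and OAS2, an oligoadenylate synthetase (7.46 to 132.7 FPKM, 4.17, adjusted p = 3.73e-07). EIF2AK2 (PKR) was the gene that was not called (0.20, adjusted p = 0.288). A list of 20 genes linked to IRF1 held mostly genes of antigen presentation, and also the inflammatory caspase gene CASP1 and the guanylate-binding protein genes GBP1 and GBP2. Of these 20, 19 were called higher and 0 lower, with a median of 2.67. HLA-B went from 19.6 ± 3.53 to 4550 ± 121.2 FPKM (7.87, adjusted p = 6.52e-10), HLA-C from 72.5 ± 11.8 to 3166 ± 120.1 FPKM (5.46, adjusted p = 1.77e-09) and CASP1 from 0.927 ± 0.194 to 27.5 ± 1.25 FPKM (4.77, adjusted p = 7.78e-08). HLA class I genes are near-identical copies, and the division of reads between them is uncertain. CIITA, the transactivator of class II genes, was at 0.123 and 0.215 FPKM and was not called (adjusted p = 0.178).

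Of 10 tested negative regulators of IRF and STAT activity, 4 were called higher and 2 lower, beside 20.3% and 15.5% of all genes. TRIM21, an E3 ligase that binds several IRFs, rose from 11.9 to 35.2 FPKM (1.54, limma adjusted p = 3.2e-05), and SOCS1, the JAK inhibitor, from 1.67 to 4.35 FPKM (1.36, adjusted p = 0.000596). PTPN11 (SHP2) fell from 28.3 to 13.5 FPKM (-1.08, adjusted p = 4.1e-05). Against sh-Luci-3d, 20.6% of all genes were called higher and 15.0% lower. The lists gave 6 higher and 4 lower of 17 (activation), 5 and 1 of 11 (receptors, JAKs and STATs) and 4 and 2 of 10 (negative regulators). ISRE genes gave 21 and 0 of 22, and genes linked to IRF1 gave 19 and 0 of 20. Interferons and chemokines gave 3 and 0 of 4, where IFNB1 and CXCL10 again passed the filter only through sh-Ptbp1-7d. In these libraries the summed level of 13 neuronal markers moved from 556.0 to 575.2 FPKM in sh-Ptbp1-3d to 250.9 to 259.0 FPKM in sh-Ptbp1-7d, mostly TUBB3 and NEFL. Of 11 tested, 4 were called lower and 1 higher, beside 15.5% and 20.3% of all genes. The higher one was MAP2, which rose from 20.3 ± 3.25 to 38.9 ± 4.22 FPKM (0.94, limma adjusted p = 0.000581). Against sh-Luci-3d, 3 of the 11 were called lower and 2 higher, MAP2 (0.81) and SNAP25 (1.69, limma adjusted p = 9.16e-05). Replicate 3 of sh-Ptbp1-3d stood apart in STMN2 (11.5 FPKM, listed at 0 in every other library) and DCX (2.145 FPKM, at most 0.0346 FPKM elsewhere). It also did in ELAVL3 (1.47 FPKM, at most 0.0217 FPKM elsewhere). STMN2, DCX and ELAVL3 passed the filter only through that library, so the number tested depends on it. The part of the shift in neuronal markers in the rise of the IRF genes was not tested.

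**Figure D4:**
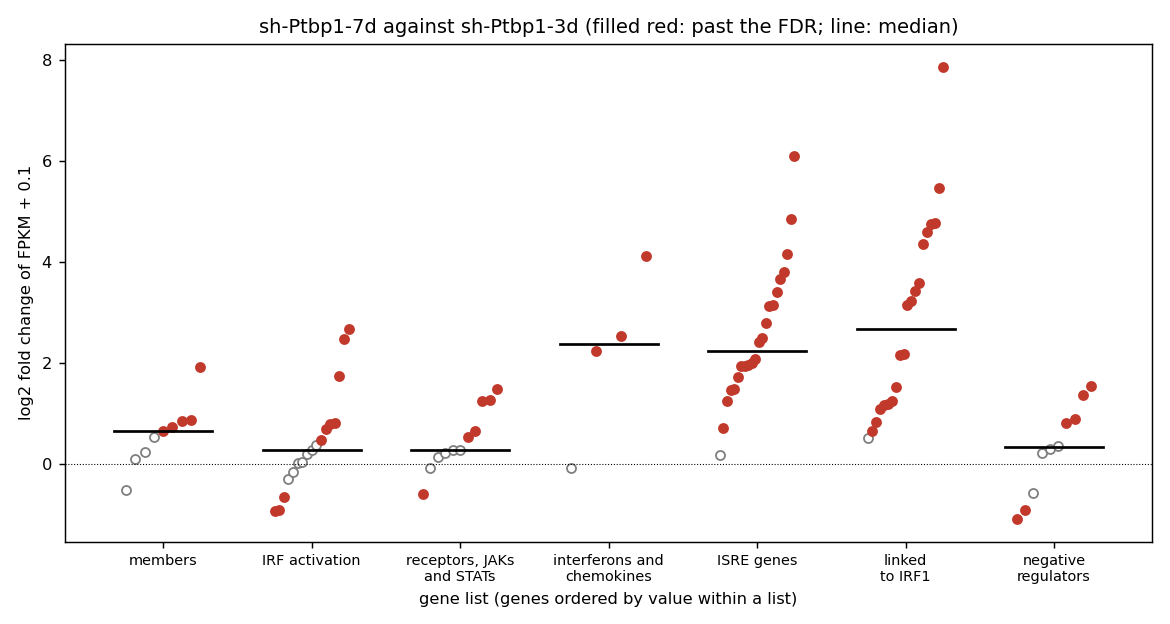
Log2 fold change of FPKM + 0.1 from sh-Ptbp1-3d to sh-Ptbp1-7d for the 9 members and the tested genes of 6 pathway lists (points, ordered by value within a list; filled red points passed the FDR), with the list's median (line). The medians are 0.66 for the members, 2.25 for ISRE genes and 2.67 for genes linked to IRF1.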

How the data were processed

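The authors infected U251 cells, sequenced RNA on Illumina HiSeq, filtered the reads and compared them to a reference sequence. The submitters' processing notes name HISAT2 and GRCh38. The counting program and strand setting are not given in the sources used here. What the authors deposited are FPKM values for 19932 gene symbols and 2363 assembled loci, with the coordinates of those loci, which were used only to look for overlap with the IRF genes. Positions and exon overlaps were taken from GENCODE v29 (97.6% of symbols matched). Samples were grouped by their labels.

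The deposited FPKM values were transformed to log2(FPKM + 0.1), and limma 3.58.1 (R 4.3.3) was run on the 15551 genes whose mean reached 0.1 FPKM, all 9 libraries together, with an intensity trend and Benjamini-Hochberg adjustment. The FDR limits at 3 days and between both knockdown times are those of the study's methods, which also require a fold above 2. Here calls rest on the FDR, with those past the fold given separately, and the limit of 0.01 was extended to sh-Ptbp1-7d against sh-Luci-3d. Genes named were the 9 members, IRF genes of blood cells, PTBP1, genes overlapping a member's exons, the 3 nearest profiles to IRF1, IRF7 and IRF9, and in each pathway list up to 3 genes with the largest change among those called. Some genes that this rule takes in are not reported here. IRAK1, MAVS, IKBKE, JAK1, TBK1, EIF2AK2, CIITA and the markers given with values were named after their values were seen. The members and lists were chosen with earlier results of these data known. Alternatives were pseudocounts of 1 and 0.01, a filter at 1 FPKM or none, rescaling to TPM, by median ratios or by quantiles, tests without assembled loci, without the trend or within 2 groups, a block for the replicate number, and leaving out each library. A correction for GC content and length was added after seeing the data. Figures were drawn with matplotlib 3.10.9.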

Additional observations from a re-analysis of the deposited data

How the results depend on the processing

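Of the 9 members, 0 were called in sh-Ptbp1-3d against sh-Luci-3d under every alternative except leaving out libraries, where the count ran from 0 to 4, with 4 called without sh-Luci-3d replicate 3, when calls among all genes went from 5 to 993. In sh-Ptbp1-7d relative to sh-Ptbp1-3d, IRF1, IRF2, IRF9, IRF2BP2 and IRF2BPL were called under all 21 alternatives and the count ran from 5 to 7. IRF5 was also called under median-ratio scaling (-0.59), quantile normalization (-0.66), the GC and length correction (-0.63) and without sh-Luci-3d replicate 3, and IRF2BP1 under TPM (0.64), the fit of 2 groups, the GC and length correction (0.43) and without sh-Luci-3d replicate 3. Against sh-Luci-3d, the same 5 and IRF2BP1 were called under all 21 and the count ran from 6 to 7. IRF5 joined under the GC and length correction (-0.56) and IRF3 without sh-Luci-3d replicate 3 (0.43). Over all 21 the difference ran from 0.537 to 1.131 for IRF2BP1 and from 0.587 to 0.985 for IRF2BPL. The cause of these changes was not tested. IRF7 was called in none of its 20 fits.

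Of differences that were not called, IRF1 at 3 days changed sign under TPM (-0.011), median-ratio scaling (-0.003), quantile normalization (-0.002) and the GC and length correction (-0.015), and IRF2 under the last (0.007). With libraries left out, these 3 day differences ran from -0.112 to 0.135 (IRF1), -0.055 to 0.063 (IRF2), -0.036 to 0.612 (IRF7) and -0.116 to 0.142 (IRF9). IRF7 in sh-Ptbp1-7d relative to sh-Ptbp1-3d ran from -0.171 to 0.824, and against sh-Luci-3d from 0.15 (without sh-Ptbp1-7d replicate 1) to 1.144 (without sh-Ptbp1-7d replicate 3) over all its alternatives (adjusted p from 0.0293 to 0.822). The log2 difference of the IRF7 to IRF3 ratio was 0.146, -0.122 under quantile normalization, and -0.369 to 0.818 with libraries left out. The median of all genes in sh-Ptbp1-7d relative to sh-Ptbp1-3d was 0.09 as deposited, 0.19 in TPM and -0.01 after quantile normalization. The interferon and chemokine list fell from 3 to 1 called gene when a mean of 1 FPKM was required, since fewer genes were tested, and the activation list from 10 to 6 called genes against sh-Luci-3d with no filter. With the replicate number as a block (replicate block), 0, 5 and 6 members were called in the 3 comparisons. Deviations of libraries with the same number correlated at -0.032 to 0.051, so the numbers were not taken to pair them.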
